A study of Homo sapiens with 30 samples.

Results

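Activation for 12 h was compared with rest in cells of the human T cell leukaemia line Jurkat E6-1 that lack isoform 1 of SLAMF6 (KO). The comparison set 3 libraries of KO cells given PMA and ionomycin for 12 h (KO 12 h, titled with the numbers 7, 8 and 9) against 3 libraries of unstimulated KO cells (KO 0 h, numbers 1, 2 and 3). These are 6 of the 30 libraries of the series, chosen by their titles alone, and every expressed gene is a member, 21554 of 54300 gene symbols. The treatment protocol gives PMA at 200 ng/ml with ionomycin at 300 ng/ml and calls the edited cells SLAMF6∆17-65. That text describes a cytokine assay, and its hours were taken as the unit of the time points, which the labels give without one. Unedited cells (WT) at 12 h and at 0 h, 3 libraries each, were used where the change in KO was set against the change in WT. The series title names overexpressed isoform-3, whereas its design text names a KO of isoform 1, which was followed here. The sources do not say how many edited clones were used or whether libraries of a group came from separate cultures, so p-values measure the spread between these libraries, which may be technical.

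PMA is a phorbol ester that activates protein kinase C, and ionomycin is an ionophore that raises calcium in the cell. Together they drive the MAP kinase, NF-kB and NFAT branches that follow the T cell receptor without engaging the receptor itself. SLAMF6 belongs to the SLAM family of lymphocyte receptors, whose members signal through the adaptor SAP. Jurkat cells are a standard model of early T cell activation because they secrete interleukin 2 when stimulated in this way.

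The KO 12 h libraries held 19.3 to 21.1 M counts, against 24.2, 5.64 and 28 M in the KO 0 h libraries, where replicate 2 was shallow. Pearson r of log2 CPM over the 21554 genes was 0.974 to 0.978 within KO 12 h, 0.969 to 0.984 within KO 0 h and 0.937 to 0.955 between the groups. All 13 T cell markers reached 1 CPM in both groups, and they summed to 5276 to 6181 CPM in KO 12 h libraries and 4450.2 to 4648 CPM in KO 0 h libraries. Monocyte markers summed to 30.2 to 46.3 CPM in KO 12 h libraries and 4.76 to 11.8 CPM in KO 0 h libraries. Most of that sum was CD68, LYZ had no count in either group, and CD14 was at 0.310 ± 0.242 CPM at 12 h and 0.416 ± 0.157 CPM at 0 h (SD, n = 3 each). Of the 8 monocyte markers 5 were tested, and 3 were called higher at 12 h and 0 lower. Those 3 were CD68, ITGAM (log2 fold change 3.31) and CSF1R (1.09), against 14.1% called higher over all genes tested. B cell markers summed to 20.7 to 31.0 CPM in KO 12 h libraries and 35.6 to 49.6 CPM in KO 0 h libraries, erythroid markers to at most 0.292 and 0.176 CPM, and epithelial and fibroblast markers to at most 2.77 and 6.17 CPM. The part of the monocyte and B cell markers in the results below was not tested. Levels are in CPM, the counts scaled to a common library size by TMM, and they are not divided by gene length.

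Replicate 7 of KO 12 h stood apart from replicates 8 and 9. Among genes called higher at 12 h with a mean of at least 10 CPM in either group, 33 were at least 2-fold above both other KO 12 h libraries in replicate 7 and 19 were at least 2-fold below both. For replicate 8 these numbers were 0 and 0, and for replicate 9 they were 1 and 2. KRT1, a keratin, had 7.64, 71.8 and 64.1 CPM in KO 12 h libraries, against 18.9, 16.4 and 24.3 CPM in KO 0 h libraries, and PI16 had 4.43, 29.3 and 29.6 CPM at 12 h, against 22.5, 23.1 and 20.7 CPM at 0 h. Replicate 7 was the low library in both, and neither gene was called. Fold changes given below that moved by over 1.5 times when it was left out are also given without it.

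**Figure D1:**
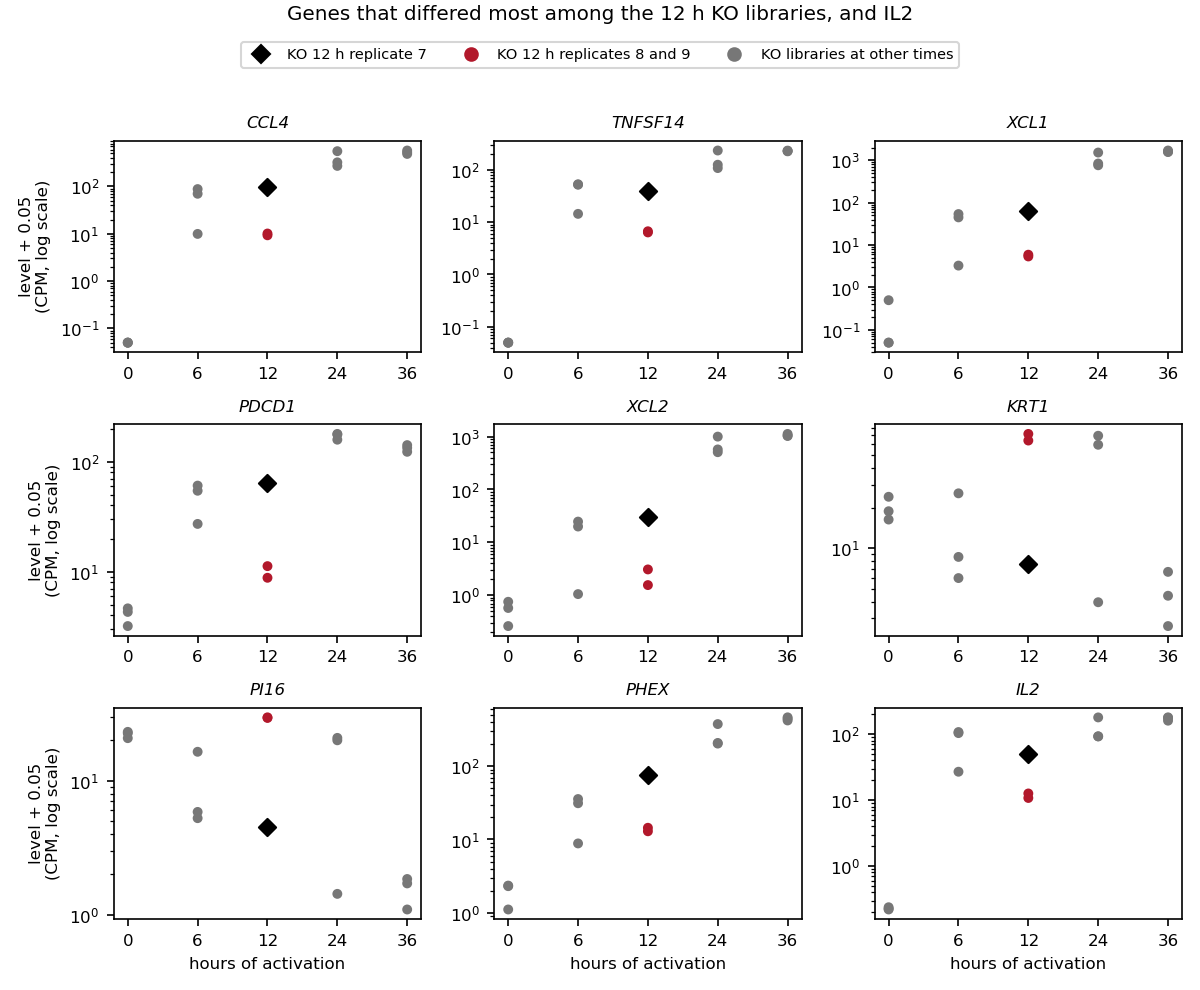
Levels of 9 genes (CPM plus 0.05, log scale) in each KO library at 0, 6, 12, 24 and 36 h of activation. The black diamond is KO 12 h replicate 7, red points are KO 12 h replicates 8 and 9, and grey points are KO libraries at other times. In replicate 7, KRT1 and PI16 were low and the other genes high. The 8 genes besides IL2 had the widest range among the 12 h libraries.

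SLAMF6 itself rose during activation of the KO cells. It had 50.01, 59.4 and 48.01 CPM at 12 h, against 18.2, 20.96 and 18.6 CPM at 0 h. The groups did not overlap, and the log2 fold change of KO 12 h over KO 0 h was 1.46 (SE 0.14, edgeR quasi-likelihood test with Benjamini-Hochberg adjustment, adjusted p = 5.27e-11). In WT cells it had 53.3, 50.97 and 49.5 CPM at 12 h and 19.00, 25.1 and 19.4 CPM at 0 h, and the 2 changes differed by 0.16 on the log2 scale (SE 0.19, edgeR adjusted p = 0.8). The counts sum over isoforms and do not check the loss of isoform 1.

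The bases just before the start sites of 4 genes are shown because these genes carry the main groups of changes described below. They belong to GBP1 (interferon-stimulated), TNFAIP3 (NF-kB), GZMB (cytotoxic granules) and GINS2 (DNA replication). The sequences are RefSeq's on GRCh38.p14, the 250 bases before each start site, 5′ to 3′ on the gene's strand, with matches to the motifs named here in capitals on either strand. The motifs searched were AP-1 (TGANTCA), NFAT (TGGAAA), the cyclic AMP response element (TGACGTCA), EGR (GCGTGGGCG), the interferon response element (GAAANNGAA), E2F (TTTCCCGC) and NF-kB (GGGNNTTTC). In TNFAIP3 the NFAT letters overlap those of NF-kB. GBP1 holds the interferon element with its first base 126 bases before the start, and GINS2 holds the E2F letters 31 bases before it. The AP-1 letters of GZMB begin 214 bases before the start, and the NF-kB letters of TNFAIP3 66 and 54 bases before it.
GBP1 (chr1:89065209-89065458, minus strand): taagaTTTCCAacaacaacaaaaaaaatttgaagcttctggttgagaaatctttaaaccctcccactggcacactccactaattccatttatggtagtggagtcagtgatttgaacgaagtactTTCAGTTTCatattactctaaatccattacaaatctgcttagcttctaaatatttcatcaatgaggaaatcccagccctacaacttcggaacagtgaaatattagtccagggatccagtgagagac
GINS2 (chr16:85688955-85689204, minus strand): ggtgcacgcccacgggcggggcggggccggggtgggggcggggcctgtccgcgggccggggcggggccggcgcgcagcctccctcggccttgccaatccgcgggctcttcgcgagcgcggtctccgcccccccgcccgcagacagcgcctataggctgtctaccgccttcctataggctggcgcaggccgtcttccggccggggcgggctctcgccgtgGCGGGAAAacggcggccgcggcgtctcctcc
GZMB (chr14:24634191-24634440, minus strand): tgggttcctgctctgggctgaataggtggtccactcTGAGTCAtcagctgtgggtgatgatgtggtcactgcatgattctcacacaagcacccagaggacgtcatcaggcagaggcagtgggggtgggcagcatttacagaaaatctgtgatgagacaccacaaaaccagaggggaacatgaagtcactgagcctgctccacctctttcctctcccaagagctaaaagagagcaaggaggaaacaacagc
TNFAIP3 (chr6:137867009-137867258, plus strand): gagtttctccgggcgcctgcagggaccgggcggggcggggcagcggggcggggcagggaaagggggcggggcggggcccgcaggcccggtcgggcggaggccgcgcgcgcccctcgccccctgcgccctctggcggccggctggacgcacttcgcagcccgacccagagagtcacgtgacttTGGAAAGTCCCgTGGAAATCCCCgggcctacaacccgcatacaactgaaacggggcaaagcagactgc

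Of 21554 genes tested, 5995 (27.8%) were called at an adjusted p under 0.05 (edgeR). Of these, 3030 (14.1%) were higher and 2965 (13.8%) were lower at 12 h. Large changes were more often rises than falls, as 1537 genes rose and 1005 fell by at least 2-fold, and 476 rose and 99 fell by at least 8-fold. Part of this excess lay near the floor, as 300 genes called higher and 73 called lower were under 1 CPM in both groups. Among genes of at least 10 CPM in either group, 630 rose and 492 fell by at least 2-fold. Among the called genes, the libraries of the 2 groups did not overlap in 2857 that were higher and 2818 that were lower. A call with 3 libraries a group makes such separation likely, so it is no further support. Its share among genes not called was not counted. The median log2 change was 1.01 over the genes called higher, -0.73 over those called lower and 0.05 over all genes tested. Genes called higher held at most 25.4% of the counts in KO 12 h libraries and at most 13.0% in KO 0 h libraries. Genes called lower held 20.7, 20.2 and 20.1% in KO 12 h libraries and 32.0, 32.6 and 32.1% in KO 0 h libraries. These shares describe the genes that the test itself chose. Without KO 12 h replicate 7, 5350 genes were called, 2731 of them higher. With neither that library nor the shallow KO 0 h replicate 2, 4877 were called, 2445 of them higher.

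**Figure D2:**
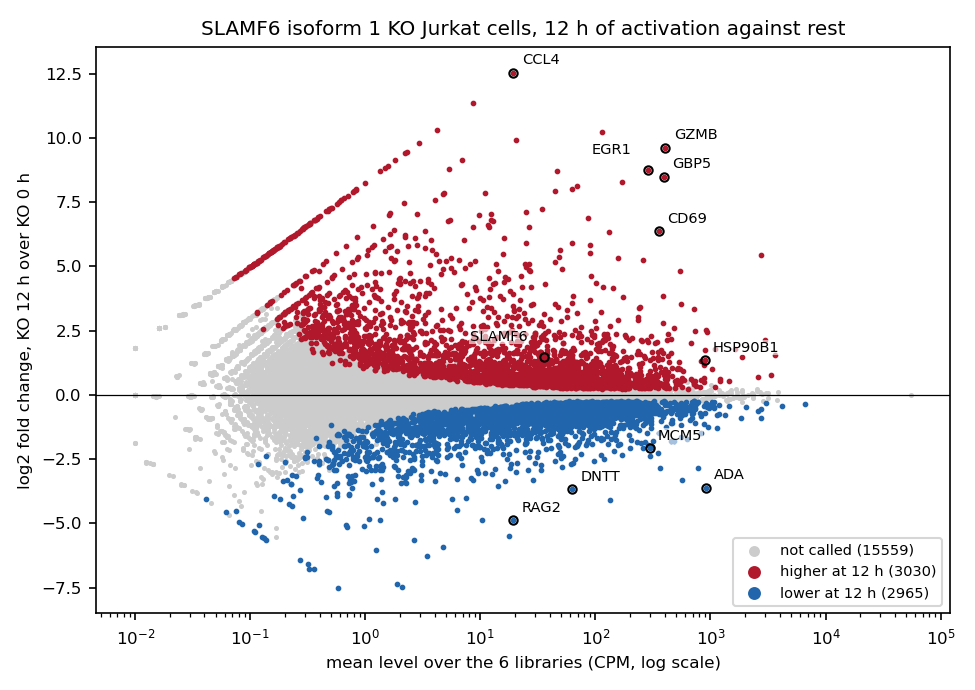
Each point is 1 of 21554 genes, with its mean level over the 6 libraries (CPM, log scale) on the x axis and the log2 fold change of KO 12 h over KO 0 h on the y axis. Red and blue points are genes called higher (3030) and lower (2965). The streaks at the upper left are genes with few or no counts at 0 h, whose fitted fold change depends on the prior count.

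The 10 genes with the largest rises each averaged at most 2.28 CPM at 0 h. They were chosen among genes whose groups did not overlap, so their separation follows from that rule. GZMB, the protease granzyme B of cytotoxic granules, had 1278, 521 and 631 CPM in KO 12 h libraries, against 0.893, 1.41 and 1.05 CPM in KO 0 h libraries. Replicate 7 exceeded the sum of the other KO 12 h libraries (log2 fold change 9.61, SE 0.59, edgeR adjusted p = 2.4e-11). Reads of GZMB and its near copy GZMH may be shared, as the counting rules are not stated in the labels or notes. GBP5, a guanylate-binding protein induced by interferon, had 659.8, 803 and 886 CPM at 12 h, against 2.13, 2.64 and 2.07 CPM at 0 h. EGR1, an immediate early transcription factor, had 437, 648 and 624 CPM at 12 h, against 1.40, 1.06 and 1.35 CPM at 0 h. GBP5 and EGR1 had log2 fold changes of 8.49 (SE 0.27, edgeR adjusted p = 2.54e-19) and 8.73 (SE 0.23, edgeR adjusted p = 3.8e-24).

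XIRP1, an actin-binding protein known from muscle, had 311, 194 and 179 CPM in KO 12 h libraries, against 0.0850, 1.06 and 0.0752 CPM in KO 0 h libraries. HCAR1, a receptor for lactate, had 99.8, 103 and 73.3 CPM at 12 h, against 0.425, 0 and 0.0752 CPM at 0 h. For XIRP1 and HCAR1 too, no overlap between the groups was a condition of the choice. CCL4, a chemokine, had 97.01, 10.1 and 9.22 CPM at 12 h, against 0, 0 and 0 CPM at 0 h, at least 721-fold higher against a floor of 3 counts over the KO 0 h group and at least 179.4-fold without replicate 7. TNFSF14, the TNF family ligand LIGHT, had 38.7, 6.31 and 6.63 CPM in KO 12 h libraries, against 0, 0 and 0 CPM in KO 0 h libraries, at least 320.1-fold higher against the same floor and at least 120.4-fold without replicate 7. Replicate 7 was the high library in both, and both calls were lost with the 6 libraries alone (edgeR adjusted p = 0.165 for CCL4 and 0.096 for TNFSF14). CRTAM, an activation receptor of cytotoxic T cells, had 70.2, 22.9 and 30.2 CPM at 12 h and 0.0850, 0 and 0 CPM at 0 h with 2 counts over the KO 0 h libraries. PTGS1, a cyclooxygenase of prostaglandin synthesis, had 13.6, 15.3 and 12.5 CPM at 12 h and 0.0425, 0 and 0 CPM at 0 h. SERPINB2, an inhibitor of urokinase, had 15.5, 6.31 and 10.2 CPM at 12 h and 0.0425, 0 and 0 CPM at 0 h. Each had 1 count over the KO 0 h libraries, too few for a fold.

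The 10 genes with the largest falls included both RAG2 and DNTT. They too were chosen among genes whose groups did not overlap. RAG2, which with RAG1 forms the recombinase that assembles antigen receptor genes, had 0.924, 1.25 and 1.67 CPM at 12 h, against 38.7, 35.4 and 38.3 CPM at 0 h (log2 fold change -4.87, SE 0.37, edgeR adjusted p = 1.23e-12). DNTT, the terminal transferase that adds bases at those joins, had 7.25, 9.68 and 10.7 CPM at 12 h, against 116, 105 and 128 CPM at 0 h (log2 fold change -3.66, SE 0.31, edgeR adjusted p = 2.81e-09). ADA, adenosine deaminase, which clears deoxyadenosine in thymocytes, had 114, 145 and 153 CPM in KO 12 h libraries, against 1377, 1830.2 and 1849 CPM in KO 0 h libraries (log2 fold change -3.62, SE 0.24, edgeR adjusted p = 3.38e-11). ADA was the most abundant of the 10 genes with the largest falls. SH3TC1 had 10.2, 17.3 and 16.6 CPM at 12 h, against 238, 287 and 228 CPM at 0 h. RASGRP2, an exchange factor for Rap1, had 1.46, 4.14 and 3.29 CPM at 12 h, against 27.8, 31.5 and 30.5 CPM at 0 h. DAPK1, a death-associated kinase, PTGER3, a prostaglandin E receptor, EPHA3, an ephrin receptor, TUBB3, a tubulin, and the non-coding LINC00977 fell by 4.48, 4.04, 4.01, 3.54 and 4.86 on the log2 scale, with SE of 0.49, 0.47, 0.32, 0.33 and 0.35. The log2 fold change of DAPK1 was -5.15 without KO 12 h replicate 8.

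**Figure D3:**
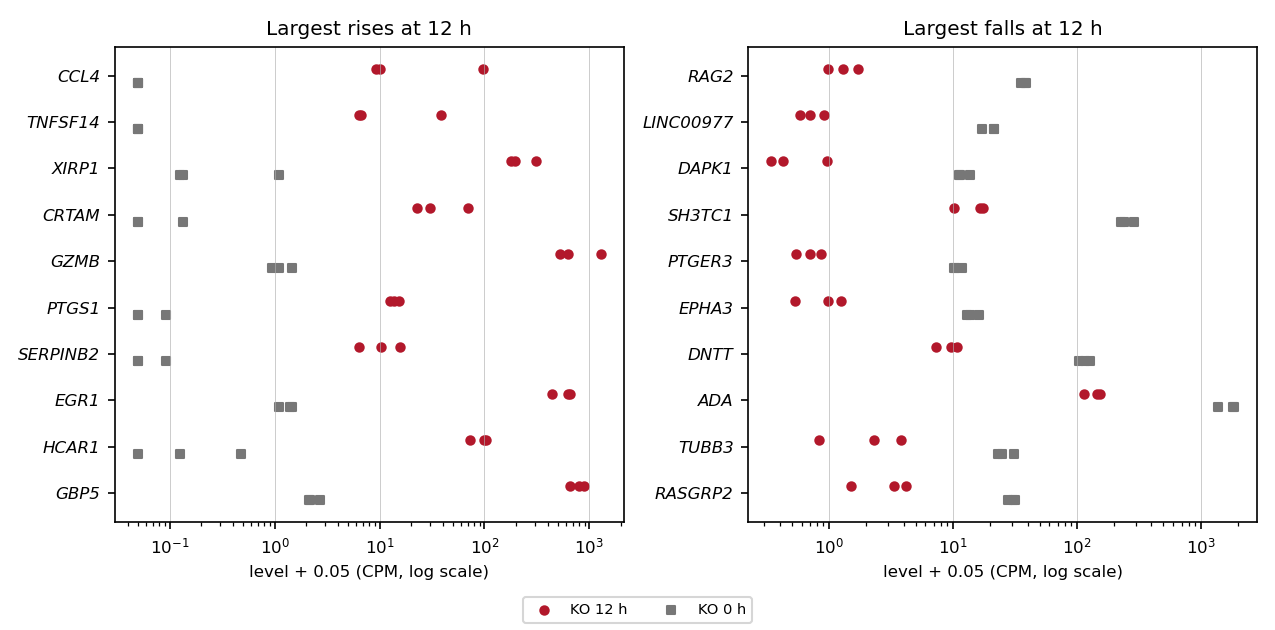
Levels (CPM plus 0.05, log scale) of the 10 genes with the largest rises and the 10 with the largest falls, called with at least 10 CPM in either group and no overlap between the groups' libraries. Red circles are the 3 KO 12 h libraries and grey squares the 3 KO 0 h libraries of each gene. CCL4, TNFSF14, CRTAM and GZMB each have 1 KO 12 h library, replicate 7, to the right of the other 2.

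Most transcription factors of the immediate early and activation response rose. Of 33 tested, 25 were higher and 1 was lower, and their median log2 change was 2.26 against 0.05 over all genes. FOS, a partner in AP-1, had 20.3, 25.7 and 31.2 CPM in KO 12 h libraries, against 0.723, 1.41 and 1.69 CPM in KO 0 h libraries (log2 fold change 4.36, SE 0.29, edgeR adjusted p = 3.07e-15). IER3, an early response gene that modulates cell survival, had 214, 144 and 153 CPM at 12 h, against 1.36, 1.41 and 1.503 CPM at 0 h. KLF10, a zinc finger repressor, had 126, 181 and 173 CPM at 12 h, against 35.8, 29.1 and 34.5 CPM at 0 h. EGR2, a relative of EGR1, had 132, 68.4 and 63.5 CPM at 12 h and 0.680, 0 and 0.150 CPM at 0 h. NR4A1, an orphan nuclear receptor induced by calcium, had 23.6, 16.8 and 14.9 CPM at 12 h and 3.44, 1.94 and 2.48 CPM at 0 h. TBX21, the T helper 1 factor T-bet, had 33.8, 17.6 and 14.7 CPM in KO 12 h libraries, against 0.0425, 0 and 0.150 CPM in KO 0 h libraries (log2 fold change 7.85, SE 0.65, edgeR adjusted p = 4.17e-10). Its log2 fold change was 9.08 without KO 0 h replicate 3 and 7.25 with neither KO 12 h replicate 7 nor KO 0 h replicate 2. The exception was MYC, the growth regulator, with 99.1, 26.9 and 31.3 CPM at 12 h, against 239, 227 and 242 CPM at 0 h (log2 fold change -2.17, SE 0.44, edgeR adjusted p = 0.00064), and its groups did not overlap. It was -3.02 without replicate 7, and with the 6 libraries alone MYC was not called (edgeR adjusted p = 0.0512).

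Feedback inhibitors of the same pathways also rose. Of 27 genes of calcium and MAP kinase feedback, 16 rose and 2 fell (median log2 change 1.52). SPRY4 and SPRED2 restrain the Ras to ERK pathway, and the DUSP phosphatases remove phosphate from MAP kinases. SPRY4 had 73.9, 68.9 and 60.1 CPM at 12 h, against 0.0850, 1.41 and 0.526 CPM at 0 h (log2 fold change 7.24, SE 0.27, edgeR adjusted p = 9.1e-22). It was 6.55 without KO 0 h replicate 1. SPRED2 had 132, 125 and 116 CPM in KO 12 h libraries, against 14.3, 13.7 and 13.4 CPM in KO 0 h libraries (log2 fold change 3.17, SE 0.11, edgeR adjusted p = 3.8e-24). DUSP10 had 81.6, 93.1 and 85.1 CPM at 12 h, against 8.76, 5.64 and 8.68 CPM at 0 h. DUSP5 had 15.3, 15.4 and 21.9 CPM at 12 h and 0.298, 0 and 0.752 CPM at 0 h. DUSP1 was not called, with 2.93 ± 0.646 CPM at 12 h and 3.40 ± 1.18 CPM at 0 h (SD, n = 3 each). Nor was RCAN1, a calcineurin inhibitor, with 6.14 ± 1.57 CPM at 12 h and 6.62 ± 1.24 CPM at 0 h (SD, n = 3 each). The 2 that fell, RASGRP1, which activates Ras in T cells, and DGKZ, which removes diacylglycerol, had log2 changes of -0.83 and -0.67 (SE 0.16 and 0.24). The call for DGKZ was lost without KO 0 h replicate 2 or 3 or KO 12 h replicate 7 or 9 (edgeR adjusted p 0.0809 to 0.14).

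Most cytokine and chemokine genes that rose had few or no counts at rest. Of 20 cytokine genes listed, 13 passed the filter on low counts, 7 of them rose and 1 fell. The filter used all 10 groups, so genes with few or no counts at rest passed it only through activated libraries. Such genes could hardly be called lower, so the count of rises is a description. IL2, the T cell growth factor, had 49.9, 10.7 and 12.6 CPM at 12 h, against 0.170, 0.176 and 0.188 CPM at 0 h (log2 fold change 7.04, SE 1.06, edgeR adjusted p = 3.53e-05). Without replicate 7 the log2 fold change of IL2 was 5.97 (edgeR adjusted p = 0.000108). IFNG, interferon gamma, had 19.5, 5.05 and 4.32 CPM at 12 h and 0, 0 and 0.0752 CPM at 0 h, with 2 counts over the KO 0 h libraries. Every KO 12 h library exceeded every KO 0 h library in both, and in both replicate 7 was the highest. IL16, a chemoattractant that resting lymphocytes also make, was the most abundant of the list, with 255, 346 and 372 CPM in KO 12 h libraries, against 27.4, 19.9 and 20.9 CPM in KO 0 h libraries (log2 fold change 3.81, SE 0.18, edgeR adjusted p = 1.5e-16). LIF, a cytokine of the interleukin 6 family, had 1.61, 1.93 and 1.40 CPM at 12 h and 0, 0 and 0 CPM at 0 h, at least 30.6-fold higher against the floor of 3 counts. IL32 fell, with 37.1 ± 4.77 CPM at 12 h and 57.7 ± 4.97 CPM at 0 h (SD, n = 3 each) (log2 fold change -0.64, SE 0.13, edgeR adjusted p = 9.96e-05). Without KO 12 h replicate 7, 5 of the 13 were called higher and 1 lower.

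Of 12 chemokine genes, 11 passed the filter and 7 of those rose. As with the cytokines, members with few or no counts at rest passed it only through activated libraries and could hardly be called lower. The lymphotactins XCL1 and XCL2, near copies whose reads may be shared, were both higher. XCL1 had 62.6, 5.34 and 5.88 CPM at 12 h and 0, 0 and 0.451 CPM at 0 h. XCL2 had 29.7, 3.03 and 1.51 CPM at 12 h and 0.213, 0.705 and 0.526 CPM at 0 h. Replicate 7 was far above replicates 8 and 9 in both. The log2 fold change of XCL1 was 6.81 (edgeR adjusted p = 0.00112) and 4.67 without replicate 7 (adjusted p = 0.0185). For XCL2 it was 4.77 (edgeR adjusted p = 0.00911) and 2.46 without replicate 7, where the call was lost (adjusted p = 0.234). CCL4 remained called without replicate 7 (adjusted p = 0.000676), and its reads may include those of CCL4L copies. IL8, which attracts neutrophils, had 3.41, 0.529 and 2.05 CPM at 12 h and 0, 0 and 0.150 CPM at 0 h. CCL1 had 3.36, 1.73 and 4.05 CPM at 12 h and 0.298, 0 and 0.601 CPM at 0 h. For XCL1 it was 11.85 without KO 0 h replicate 3 and 6.03 without KO 0 h replicate 1, where XCL2 also lost its call (edgeR adjusted p = 0.0576). With the 6 libraries alone, 4 of 8 tested chemokine genes were called. Of the 11, 5 were called without replicate 7 and 4 with neither replicate 7 nor KO 0 h replicate 2.

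Ligands and receptors of the TNF family, which govern survival and death of activated T cells, rose in 17 of 22 tested genes and fell in 0 (median log2 change 2.36). Members with few or no counts at rest, such as TNFRSF9, could hardly be called lower here either, so these counts are a description. TNFSF8, the CD30 ligand, had 116, 81.6 and 92.1 CPM at 12 h, against 1.96, 1.76 and 2.03 CPM at 0 h (log2 fold change 5.62, SE 0.18, edgeR adjusted p = 2.02e-24). TNFSF10, the death ligand TRAIL, had 195, 349 and 383 CPM at 12 h, against 8.76, 5.64 and 7.63 CPM at 0 h (log2 fold change 5.33, SE 0.32, edgeR adjusted p = 1.28e-11). TNFRSF10B, one of its receptors, had 103, 96.4 and 91.9 CPM in KO 12 h libraries, against 37.3, 38.8 and 42.4 CPM in KO 0 h libraries. TNF had 22.8, 24.02 and 24.5 CPM at 12 h, against 2.59, 2.47 and 2.52 CPM at 0 h, with tight replicates in both groups. TNFRSF9, the costimulatory receptor 4-1BB, had 8.37, 2.503 and 2.32 CPM at 12 h and 0, 0 and 0 CPM at 0 h, at least 81.8-fold higher against the floor and at least 44.9-fold without replicate 7. TNFRSF1A was not called, with 60.4 ± 6.23 CPM at 12 h and 65.3 ± 4.95 CPM at 0 h (SD, n = 3 each). TNFRSF8 was not called either, with 18.4 ± 2.11 CPM at 12 h and 18.8 ± 1.05 CPM at 0 h (SD, n = 3 each).

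Surface markers of activation rose in 13 of 17 genes and fell in 2. CD69, the classic early activation antigen, had 922, 574 and 631 CPM at 12 h, against 8.71, 8.46 and 8.53 CPM at 0 h (log2 fold change 6.37, SE 0.25, edgeR adjusted p = 1.24e-16). IL2RA, the alpha chain of the interleukin 2 receptor, had 32.8, 20.6 and 23.9 CPM in KO 12 h libraries, against 0.170, 0 and 0.338 CPM in KO 0 h libraries (log2 fold change 6.77, SE 0.41, edgeR adjusted p = 3.59e-14). It was 7.50 without KO 0 h replicate 3. IL2RB, its beta chain, fell (log2 fold change -0.75, SE 0.27, edgeR adjusted p = 0.0302). That call was lost with the 6 libraries alone and without KO 0 h replicate 2 or 3 or KO 12 h replicate 7 or 8 (edgeR adjusted p 0.0644 to 0.142). ICAM1, an adhesion ligand, had 14.7, 22.3 and 15.2 CPM at 12 h, against 1.23, 1.06 and 0.827 CPM at 0 h. CD83 had 119, 111 and 118 CPM at 12 h, against 52.6, 45.4 and 54.9 CPM at 0 h. TFRC, the transferrin receptor of growing cells, fell, with 244, 177 and 145 CPM in KO 12 h libraries, against 524, 529 and 511 CPM in KO 0 h libraries (log2 fold change -1.47, SE 0.14, edgeR adjusted p = 6.87e-11). Among 13 inhibitory receptors, 6 rose and 1 fell. PDCD1, the receptor PD-1, had 64.03, 11.2 and 8.74 CPM at 12 h, against 3.15, 4.58 and 4.25 CPM at 0 h. Its log2 fold change was 2.86 with replicate 7 and 1.37 without it (edgeR adjusted p = 0.000409 and 0.000298). CD96, a receptor of the nectin system, had 178, 205 and 226 CPM at 12 h, against 83.4, 72.4 and 83.7 CPM at 0 h, with replicates close together. BTLA, which binds HVEM, had 10.8, 2.55 and 1.83 CPM at 12 h and 0.468, 0 and 0.0752 CPM at 0 h. LAIR1, a collagen receptor, fell with 45.4, 79.2 and 78.2 CPM in KO 12 h libraries, against 118, 117 and 128 CPM in KO 0 h libraries. Its call was lost without replicate 7 (edgeR adjusted p = 0.00737 with it and 0.0526 without). Without KO 0 h replicate 1, 3 of the 13 inhibitory receptors were called higher and 1 lower.

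Most other genes of the SLAM family also rose. Of 11 tested genes of the family and its adaptors, 8 rose and 1 fell. SLAMF7 had 121, 81.3 and 81.4 CPM at 12 h, against 2.25, 2.82 and 2.18 CPM at 0 h (log2 fold change 5.36, SE 0.29, edgeR adjusted p = 2.22e-14). LY9 had 47.7, 61.1 and 66.7 CPM at 12 h, against 7.14, 8.28 and 9.06 CPM at 0 h (log2 fold change 2.84, SE 0.18, edgeR adjusted p = 1.6e-15). CD48, the ligand of CD244, had 244, 172 and 182 CPM in KO 12 h libraries, against 37.1, 31.7 and 45.2 CPM in KO 0 h libraries (log2 fold change 2.37, SE 0.21, edgeR adjusted p = 1.36e-09). SLAMF1 had 27.3, 4.62 and 8.04 CPM at 12 h and 0.638, 0.352 and 0.789 CPM at 0 h. CD84 had 159, 205 and 198 CPM at 12 h and 119.9, 110.3 and 113 CPM at 0 h. The 1 that fell was SH2D1A, which encodes SAP, the adaptor of the family, with 102, 131 and 143 CPM at 12 h, against 216, 275 and 233 CPM at 0 h (log2 fold change -0.94, SE 0.19, edgeR adjusted p = 0.000418). FYN, the kinase that SAP recruits, had 69.1, 35.7 and 40.6 CPM at 12 h, against 17.5, 17.1 and 19.3 CPM at 0 h (log2 fold change 1.42, SE 0.22, edgeR adjusted p = 1.49e-05).

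NF-kB subunits, inhibitors and targets rose in 17 of 22 genes and fell in 0 (median log2 change 1.43). TNFAIP3, the deubiquitinase A20 that ends NF-kB signalling and whose promoter is printed above, had 279.9, 318 and 317 CPM in KO 12 h libraries, against 66.9, 57.8 and 67.3 CPM in KO 0 h libraries (log2 fold change 2.24, SE 0.09, edgeR adjusted p = 1.66e-21). TRAF1, an adaptor of TNF receptors, had 339, 202 and 235 CPM at 12 h, against 3.32, 4.23 and 2.74 CPM at 0 h (log2 fold change 6.33, SE 0.26, edgeR adjusted p = 1.39e-16). BIRC3, a ubiquitin ligase that blocks cell death, had 368, 417 and 459 CPM at 12 h, against 48.5, 59.7 and 56.03 CPM at 0 h. RELB, a subunit of the non-canonical pathway, had 53.8, 38.3 and 38.8 CPM in KO 12 h libraries, against 5.53, 3.52 and 4.62 CPM in KO 0 h libraries. NFKBIA, the inhibitor IkB alpha, had 197, 176 and 180.4 CPM at 12 h, against 40.8, 51.3 and 41.7 CPM at 0 h. RELA, the main transactivating subunit, was not called, with 47.9 ± 3.38 CPM at 12 h and 55.8 ± 5.06 CPM at 0 h (SD, n = 3 each). The NF-kB letters were found in 4 of the 8 promoters of the list that RefSeq gives with a single start, and in 7.98% of 564 promoters of genes called at least 2-fold higher. The shares were 3.92% of 357 promoters of genes called at least 2-fold lower, 4.92% of all 8255 tested and 4.73% of all 22114 promoters in the table.

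Interferon-stimulated genes, which type I and type II interferons turn on, rose in 32 of 41 tested genes and fell in 0 (median log2 change 1.98). IRF9 and STAT2 are subunits of a complex that binds interferon response elements. IRF9 had 187, 202 and 212 CPM in KO 12 h libraries, against 24.5, 18.7 and 20.5 CPM in KO 0 h libraries. STAT2 had 118, 136 and 118 CPM at 12 h, against 27.97, 22.7 and 25.7 CPM at 0 h. GBP1, a guanylate-binding protein, had 554, 757 and 839 CPM at 12 h, against 49.2, 53.02 and 48.5 CPM at 0 h (log2 fold change 3.84, SE 0.16, edgeR adjusted p = 5.86e-20). GBP2 and GBP4, its relatives, had log2 fold changes of 8.27 (SE 0.38) and 8.14 (SE 0.45). The value for GBP4 was 8.98 without KO 0 h replicate 1 and 7.35 without KO 0 h replicate 3. OAS3, a sensor of double-stranded RNA, had 219.6, 212 and 180.5 CPM at 12 h and 44.5, 44.7 and 38.8 CPM at 0 h. IRF1, a transcription factor that interferon gamma induces, had 549.7, 703 and 769 CPM at 12 h and 93.4, 93.9 and 102 CPM at 0 h. Members not called included ISG15, IFIT1, USP18 and MX1, with log2 fold changes of 0.19, -0.02, -0.13 and -0.32 (SE 0.18, 0.40, 0.16 and 1.14).

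Antigen presentation genes rose in 18 of 23 tested genes and fell in 0 (median log2 change 1.56). TAP1, a subunit of the peptide transporter into the endoplasmic reticulum, had 1231, 1378 and 1333 CPM in KO 12 h libraries, against 127, 129 and 129.8 CPM in KO 0 h libraries (log2 fold change 3.35, SE 0.12, edgeR adjusted p = 6.25e-23). NLRC5, the transactivator of class I genes, had 420.4, 487 and 411 CPM at 12 h, against 46.5, 40.7 and 38.4 CPM at 0 h (log2 fold change 3.39, SE 0.14, edgeR adjusted p = 1.41e-21). HLA-E had 1057, 1016 and 973 CPM at 12 h, against 91.2, 79.8 and 90.9 CPM at 0 h (log2 fold change 3.53, SE 0.11, edgeR adjusted p = 3.08e-25). HLA-F had 42.04, 34.3 and 37.3 CPM in KO 12 h libraries, against 6.04, 5.64 and 5.82 CPM in KO 0 h libraries. Reads of class I genes may be shared between near copies. B2M, the common light chain of class I, was the most abundant, with 4958, 4961 and 6212 CPM at 12 h and 1726, 1923 and 1893 CPM at 0 h. The class II genes HLA-DMA, HLA-DPA1 and HLA-DRB1, and CIITA, their transactivator, were not called, and their mean levels at 12 h were 4.59, 0.379, 0.589 and 0.821 CPM. CD74, the invariant chain of class II, was called higher (log2 fold change 4.22, and 5.16 without KO 0 h replicate 1).

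The interferon response element was found in 14 of 19 promoters of interferon-stimulated genes with a single start (73.7%) and in 10 of 14 of antigen presentation genes (71.4%). It was found in 12.8% of the 564 promoters of genes called at least 2-fold higher, 2.24% of the 357 of genes called at least 2-fold lower, 6.49% of the 8255 tested and 8.60% of the 22114 in the table. The AP-1 letters were found in 11.7% of promoters of genes called at least 2-fold higher, 5.04% of those called at least 2-fold lower, 5.11% of all tested and 8.05% of the table. The NFAT letters were found in 17.4, 14.6, 16 and 21.6%, in the same order. For the cyclic AMP response element the shares were 1.6, 2.8, 3.27 and 2.01%, and for EGR they were 1.06, 1.96, 1.21 and 0.724%. Neither was more frequent among genes called at least 2-fold higher than among all tested. A match is a description of letters, with no test, and genes with a single start are 38.3% of those tested.

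Cytotoxic granule genes rose in 6 of 13 tested members and fell in 2. Over all genes tested, 14.1% were called higher and 13.8% lower, and the 2 of 13 that fell are near that share. GZMA, granzyme A, had 268, 246 and 287 CPM at 12 h, against 12.2, 14.3 and 18.04 CPM at 0 h (log2 fold change 4.16, SE 0.20, edgeR adjusted p = 6.86e-16). GZMH had 10.9, 3.995 and 6.37 CPM at 12 h and 0.553, 0.176 and 0.225 CPM at 0 h. PRF1, the pore-forming protein perforin, was not called, with 19.1 ± 8.29 CPM at 12 h and 9.82 ± 1.57 CPM at 0 h (SD, n = 3 each). CTSW, a cathepsin of cytotoxic cells, fell (log2 fold change -0.72, SE 0.15, edgeR adjusted p = 0.000223). With neither KO 12 h replicate 7 nor KO 0 h replicate 2, 4 of the 13 were called higher and 1 lower.

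Genes of the T cell receptor complex and its proximal kinases moved in both directions, with 10 of 25 higher and 8 lower. LCP2, the adaptor SLP-76, had 224, 283 and 249 CPM in KO 12 h libraries, against 52.1, 43.3 and 48.4 CPM in KO 0 h libraries (log2 fold change 2.38, SE 0.13, edgeR adjusted p = 5.17e-18). LAT, the membrane adaptor that binds it, had 889, 1552 and 1726 CPM at 12 h, against 410.5, 418 and 428 CPM at 0 h, with replicate 7 the lowest of the 3. Of the receptor chains, CD3D rose and CD3E and CD3G fell, with log2 fold changes of 0.62, -0.37 and -0.36 (SE 0.10, 0.11 and 0.11), and CD247, the zeta chain, was not called (-0.41, SE 0.21). The call for CD3E was lost with the 6 libraries alone and without KO 0 h replicate 1 or 3 or KO 12 h replicate 9 (edgeR adjusted p 0.0718 to 0.145), and that for CD3G without KO 12 h replicate 7 (0.0737). CD7 fell, with 6.08, 5.73 and 4.10 CPM at 12 h, against 24.9, 26.95 and 26.6 CPM at 0 h (log2 fold change -2.30, SE 0.19, edgeR adjusted p = 2.17e-12). CD5, which dampens receptor signals, rose, with 282, 202 and 205 CPM in KO 12 h libraries, against 96.9, 87.4 and 102 CPM in KO 0 h libraries.

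Genes of antigen receptor recombination and of thymocytes were lower in 16 of 24 tested members and higher in 3 (median log2 change -1.06). CD1E, one of the lipid-presenting CD1 molecules of cortical thymocytes, had 159, 189.7 and 217 CPM at 12 h, against 1366, 1318 and 1430.2 CPM at 0 h (log2 fold change -2.86, SE 0.12, edgeR adjusted p = 8.14e-21). CD1B had 14.6, 15.3 and 17.3 CPM at 12 h, against 81.7, 85.6 and 89.1 CPM at 0 h. CD1D had 29.7, 25.9 and 32.2 CPM in KO 12 h libraries, against 114, 102 and 117 CPM in KO 0 h libraries. CD1C, from the same cluster, rose (log2 fold change 0.53, SE 0.17, edgeR adjusted p = 0.0212). Its call was lost without KO 0 h replicate 2 or KO 12 h replicate 8 or 9 (edgeR adjusted p 0.0888 to 0.15). RAG1, the partner of RAG2, fell with 1.12, 1.11 and 0.863 CPM at 12 h and 10.97, 8.81 and 6.54 CPM at 0 h. TCF7, a T lineage factor, had 126, 101 and 78.3 CPM at 12 h, against 390.2, 319.9 and 368 CPM at 0 h. BCL11B, which fixes T cell identity, had 14.4, 26.1 and 33.7 CPM at 12 h, against 77.5, 72.6 and 79.5 CPM at 0 h. The other 2 that rose were TOX, with a log2 fold change of 1.31 (SE 0.14), and ZBTB16, with 0.778, 0.481 and 0.593 CPM at 12 h and 0.0850, 0 and 0 CPM at 0 h and 2 counts over the KO 0 h libraries.

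Genes of DNA replication fell almost without exception. Of 29 S phase genes, 28 fell and 0 rose (median log2 change -1.43), and all 28 had KO 12 h libraries below every KO 0 h library. The same held for 2818 of the 2965 genes called lower over all genes tested. MCM5, MCM4 and MCM7 are subunits of the replicative helicase. MCM5 had 107, 118 and 115 CPM in KO 12 h libraries, against 466, 471 and 501 CPM in KO 0 h libraries. MCM4 had 111, 98.1 and 91.8 CPM at 12 h, against 413, 444 and 403 CPM at 0 h. MCM7 had 290.0, 267 and 313 CPM at 12 h, against 1033, 828 and 1022 CPM at 0 h. In each the groups stood well apart. UHRF1, which recruits the maintenance DNA methyltransferase to replicating DNA, had 36.00, 31.4 and 39.2 CPM in KO 12 h libraries, against 208, 188 and 207 CPM in KO 0 h libraries and the largest fall of the list (log2 fold change -2.50, SE 0.13, edgeR adjusted p = 4.66e-18). GINS2, a helicase cofactor, had 25.4, 21.9 and 31.99 CPM at 12 h, against 108, 97.9 and 116 CPM at 0 h (log2 fold change -2.03, SE 0.15, edgeR adjusted p = 1.37e-13). CCNE1, cyclin E1, was not called (log2 fold change -1.07, SE 0.50, edgeR adjusted p = 0.117). The E2F letters were found in 6 of 20 S phase promoters, 1.77% of those of genes called at least 2-fold higher, 4.48% of those called at least 2-fold lower, 2.45% of all tested and 1.60% of the table.

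Genes of G2 and mitosis were lower in 21 of 28 tested members and higher in 0, with smaller changes (median log2 change -0.53, and only 2 of at least 2-fold). NUSAP1, a spindle protein, had 164, 209.6 and 204 CPM at 12 h, against 423, 405 and 426 CPM at 0 h (log2 fold change -1.12, SE 0.11, edgeR adjusted p = 2.64e-10). BIRC5, survivin, had 75.1, 84.8 and 92.7 CPM in KO 12 h libraries, against 166, 184 and 179 CPM in KO 0 h libraries. CDK1 had 259, 284 and 303 CPM at 12 h, against 444, 551 and 493 CPM at 0 h. CCNB1, cyclin B1, was not called, with 443 ± 37.2 CPM at 12 h and 510.4 ± 52.3 CPM at 0 h (SD, n = 3 each). Histone genes rose in 3 and fell in 9 of 25 tested members, among them H2AFZ, with 492, 528 and 637 CPM at 12 h, against 1159, 1219 and 1259.6 CPM at 0 h (log2 fold change -1.13, SE 0.13, edgeR adjusted p = 3.65e-09). Without KO 12 h replicate 9, 1 histone gene was called higher and 9 lower. Over all genes tested, 14.1% were called higher and 13.8% lower. CDKN1A, the cyclin-dependent kinase inhibitor p21, had 89.3, 104 and 106 CPM in KO 12 h libraries, against 3.02, 3.52 and 3.68 CPM in KO 0 h libraries (log2 fold change 4.88, SE 0.22, edgeR adjusted p = 1.06e-18). It was the largest rise in a list of 27 apoptosis and growth arrest genes, of which 12 rose and 5 fell. MCL1, a survival factor, rose with 159.9, 165 and 148 CPM at 12 h, against 46.9, 42.1 and 48.1 CPM at 0 h. BTG1, an antiproliferative factor, rose with 51.1, 65.9 and 66.5 CPM at 12 h, against 7.52, 10.04 and 11.05 CPM at 0 h. BID, which links death receptors to mitochondria, fell with 50.4, 54.3 and 64.03 CPM in KO 12 h libraries, against 253, 339.6 and 264 CPM in KO 0 h libraries (log2 fold change -2.34, SE 0.16, edgeR adjusted p = 4.04e-14).

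Genes of cholesterol and fatty acid synthesis rose in 13 and fell in 7 of 32 tested members (median log2 change 0.22). MSMO1 had 319, 359 and 317 CPM at 12 h, against 132, 154 and 145 CPM at 0 h (log2 fold change 1.21, SE 0.14, edgeR adjusted p = 8.72e-09). HMGCS1 had 362, 309 and 314 CPM at 12 h, against 155, 163 and 152 CPM at 0 h (log2 fold change 1.07, SE 0.12, edgeR adjusted p = 2.23e-09). SC5D had 129.8, 124 and 131 CPM at 12 h, against 72.3, 77.5 and 74.1 CPM at 0 h. The 7 that fell were FADS1, FADS2, SCD and ACACA of fatty acid synthesis, PMVK and LSS of sterol synthesis, and SREBF1, a master regulator of lipid synthesis (log2 fold change -1.53, SE 0.30, edgeR adjusted p = 0.000321). The call for FADS2 was lost without KO 0 h replicate 3 or KO 12 h replicate 7 or 9 (edgeR adjusted p 0.0866 to 0.242). SCD, a fatty acid desaturase, had 264 ± 25.4 CPM at 12 h and 444 ± 20.6 CPM at 0 h (SD, n = 3 each) (log2 fold change -0.75, SE 0.10, edgeR adjusted p = 3.02e-07).

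Genes of the unfolded protein response of the endoplasmic reticulum, among them chaperones, rose in 17 and fell in 0 of 23 tested members (median log2 change 0.75). HSP90B1, the chaperone GRP94, had 1332, 1243 and 1266 CPM at 12 h, against 507, 475 and 519.9 CPM at 0 h (log2 fold change 1.35, SE 0.09, edgeR adjusted p = 4.09e-15). HSPA5, the chaperone BiP, had 1439.6, 1265 and 1392 CPM in KO 12 h libraries, against 725, 603 and 699 CPM in KO 0 h libraries (log2 fold change 1.01, SE 0.11, edgeR adjusted p = 7.94e-10). PDIA4 and PDIA6 form disulphide bonds. PDIA4 had 493, 482 and 495 CPM at 12 h, against 242, 216 and 244 CPM at 0 h. PDIA6 had 378, 349 and 346 CPM at 12 h, against 151, 137 and 171 CPM at 0 h. MANF, a secreted stress factor, had 106, 102 and 107 CPM in KO 12 h libraries, against 39.3, 36.6 and 52.3 CPM in KO 0 h libraries. XBP1, a transcription factor of the response, had 118, 117 and 91.9 CPM at 12 h, against 56.6, 48.97 and 56.6 CPM at 0 h. CALR, calreticulin, was not called, with 692 ± 78.7 CPM at 12 h and 811 ± 184 CPM at 0 h (SD, n = 3 each). Leaving out KO 0 h replicate 2, 1 of the 23 was called lower. In contrast, 11 of 16 heat shock proteins of the cytosol and mitochondria fell and 0 rose. HSP90AA1 had 677, 614 and 687 CPM at 12 h, against 1618, 1517 and 1694 CPM at 0 h (log2 fold change -1.29, SE 0.10, edgeR adjusted p = 2.05e-13). HSPD1, the mitochondrial chaperonin, had 518, 384 and 394 CPM in KO 12 h libraries, against 1242, 1154 and 1277 CPM in KO 0 h libraries (log2 fold change -1.50, SE 0.13, edgeR adjusted p = 9.25e-12). Without KO 0 h replicate 3, 7 of the 16 were called lower.

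Amino acid stress genes and tRNA synthetases moved in both directions, with 8 of 30 higher and 9 lower. PHGDH, the first enzyme of serine synthesis, had 89.8, 94.4 and 104 CPM at 12 h, against 492, 499 and 526 CPM at 0 h (log2 fold change -2.40, SE 0.12, edgeR adjusted p = 3.37e-18). PSAT1, the next, fell (log2 fold change -1.28, SE 0.14, edgeR adjusted p = 4.24e-09). CBS, which makes cystathionine, had 7.98, 9.15 and 7.55 CPM at 12 h, against 56.1, 44.2 and 53.6 CPM at 0 h. DDIT3, the stress factor CHOP, rose with 62.7, 73.9 and 96.7 CPM in KO 12 h libraries, against 23.04, 26.1 and 23.9 CPM in KO 0 h libraries (log2 fold change 1.69, SE 0.13, edgeR adjusted p = 2.53e-13). WARS, a synthetase that interferon gamma also induces, rose with 570.3, 507 and 533 CPM at 12 h, against 173, 160.1 and 172 CPM at 0 h. Without KO 0 h replicate 2, 4 of the 30 were called higher and 10 lower. Glycolysis and hypoxia genes rose in 7 and fell in 10 of 29 tested members. PKM, pyruvate kinase, had 5391, 4601 and 4652 CPM at 12 h, against 1181, 1008 and 1155 CPM at 0 h (log2 fold change 2.13, SE 0.11, edgeR adjusted p = 2e-18). SLC2A3, a glucose transporter, had 90.6, 99.8 and 118 CPM in KO 12 h libraries, against 12.3, 9.34 and 9.39 CPM in KO 0 h libraries (log2 fold change 3.29, SE 0.14, edgeR adjusted p = 1.44e-20). LDHA, lactate dehydrogenase, fell with 1046, 944 and 948 CPM at 12 h and 1632, 1642 and 1741 CPM at 0 h (log2 fold change -0.77, SE 0.12, edgeR adjusted p = 3.92e-06). HK2, a hexokinase, also fell (log2 fold change -0.92, SE 0.30, edgeR adjusted p = 0.0242). The call for HK2 was lost without KO 0 h replicate 1 or 3 or KO 12 h replicate 8 or 9 (edgeR adjusted p 0.0627 to 0.129).

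Of 35 nuclear genes of oxidative phosphorylation, 2 rose and 5 fell, and of 13 mitochondrially encoded transcripts 0 rose and 3 fell. Over all genes tested, 14.1% were called higher and 13.8% lower, and the 5 of 35 that fell are near that share. Of the 35, 1 was called higher without KO 0 h replicate 2 or KO 12 h replicate 9, and 3 were called lower with the 6 libraries alone. MT-ND1, a subunit of complex I, had 872, 839 and 789 CPM at 12 h, against 1279, 1497 and 1565 CPM at 0 h (log2 fold change -0.80, SE 0.15, edgeR adjusted p = 7.82e-05). The share of counts in mitochondrially encoded transcripts was 6.69 to 8.29% in KO 12 h libraries and 7.19 to 7.85% in KO 0 h libraries. None of 47 cytosolic ribosomal protein genes was called by edgeR or by DESeq2, 3 had an unadjusted edgeR p under 0.05, and their log2 changes ran from -0.30 to 0.38. Under other settings of edgeR, 1 was called lower without KO 0 h replicate 2 and with no filter on low counts, and 1 higher and 1 lower with the 6 libraries alone. Ribosome biogenesis genes rose in 1 and fell in 11 of 28 tested members, and this count depended on the libraries used, with 4 lower without KO 12 h replicate 8 or 9, 7 lower without KO 0 h replicate 1 or 3 and 16 lower without KO 12 h replicate 7. DKC1, a pseudouridine synthase, had 244, 146 and 154 CPM at 12 h, against 341, 280.3 and 335 CPM at 0 h (log2 fold change -0.81, SE 0.16, edgeR adjusted p = 0.000206), and replicate 7 was its highest KO 12 h library.

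Chemokine receptors and migration genes rose in 6 and fell in 9 of 23 tested members. CXCR4, the receptor for CXCL12, had 140.1, 99.9 and 119.8 CPM in KO 12 h libraries, against 580.5, 520.0 and 635 CPM in KO 0 h libraries (log2 fold change -2.27, SE 0.13, edgeR adjusted p = 8.64e-17). ITGB2, the beta chain of LFA-1, rose with 327, 472 and 483 CPM at 12 h, against 175, 153 and 174 CPM at 0 h (log2 fold change 1.35, SE 0.12, edgeR adjusted p = 1.27e-11). ITGAL, its alpha chain, fell (log2 fold change -1.09, SE 0.24, edgeR adjusted p = 0.00147). ANXA1, annexin A1, rose with 433, 409 and 496 CPM in KO 12 h libraries, against 194, 190.1 and 215 CPM in KO 0 h libraries.

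**Figure D4:**
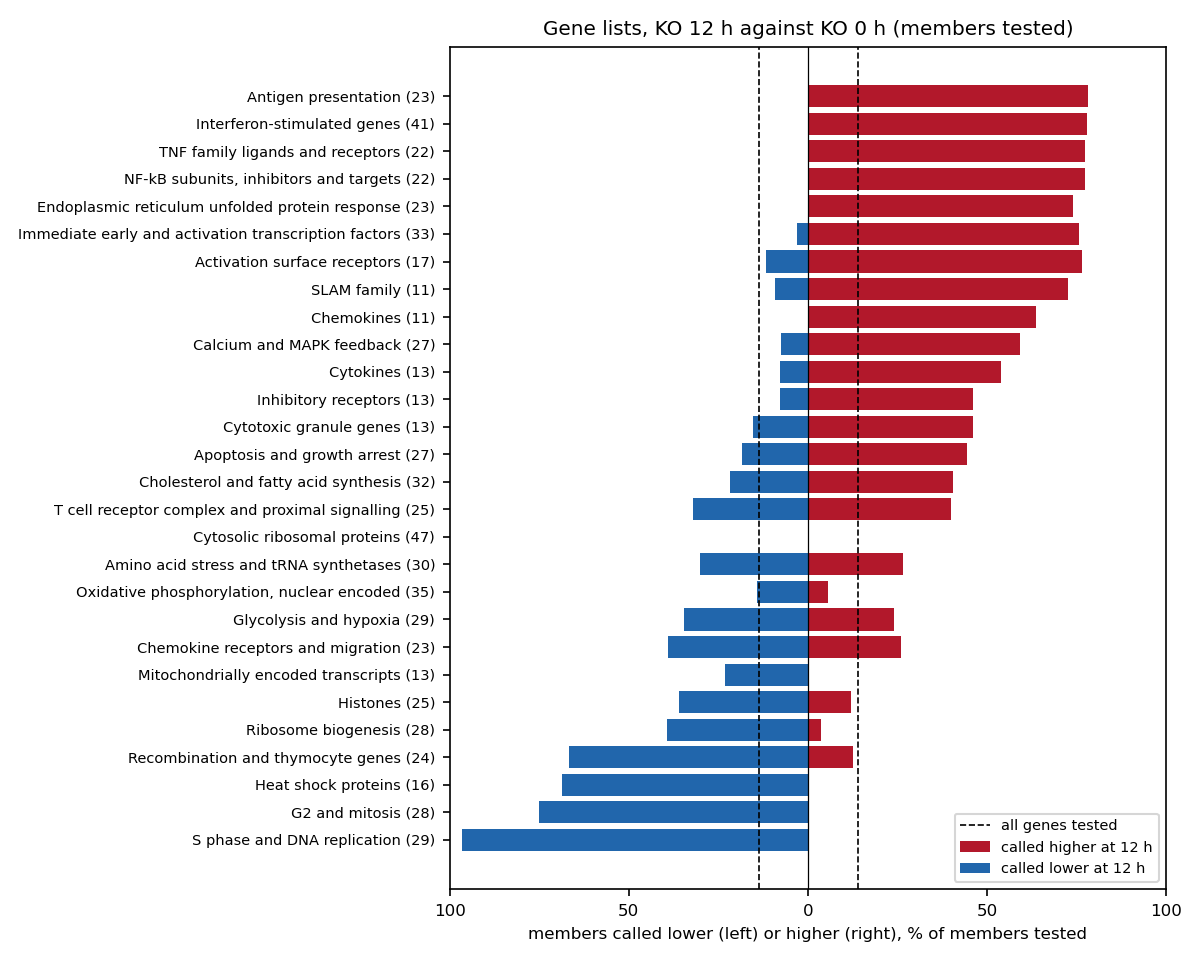
Share of the tested members of each gene list that were called higher (red, right) or lower (blue, left) in KO 12 h against KO 0 h, with the number tested in brackets. Dashed lines mark the shares over all genes tested, 14.1% higher and 13.8% lower. The lists run from antigen presentation and interferon-stimulated genes at the top, with no member lower, to S phase genes at the bottom, with no member higher. In any list, members with few or no counts at 0 h passed the filter through other groups and could hardly be called lower.

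The last comparison asked whether 12 h of activation changed genes differently in KO than in WT cells. It tests the difference between the KO change and the WT change, so a positive value means a higher change in KO. Of 21554 genes, 440 (2.04%) were called, 303 (1.41%) with a higher and 137 (0.636%) with a lower change in KO. With DESeq2's size factors for scaling, 439 were called, 267 higher and 172 lower, and DESeq2's own test gave 404 higher and 306 lower. In WT, 6517 genes (30.2%) were called between 12 h and 0 h. Of the 440 genes, 212 were called in both genotypes, 35 of these in opposite directions, 138 were called in KO and not in WT, and 90 in WT and not in KO.

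Lipid synthesis and the unfolded protein response were the lists with most members among these genes. In cholesterol and fatty acid synthesis, 21 of 32 genes had a higher change in KO and 0 a lower one. In KO 13 rose and 7 fell, while in WT 0 rose and 23 fell. MSMO1 had 253, 227 and 175 CPM at 12 h and 309, 351 and 274 CPM at 0 h in WT cells, and its log2 change was 1.21 in KO and -0.51 in WT (log2 difference 1.72, SE 0.19, edgeR adjusted p = 2.97e-07). HMGCS1 had 212, 233 and 224 CPM at 12 h and 239, 302 and 268 CPM at 0 h in WT cells (log2 difference 1.34, SE 0.16, edgeR adjusted p = 1.03e-06). In the unfolded protein response list, 12 of 23 genes had a higher change in KO and 0 a lower one, and in WT 8 rose and 6 fell. HSPA5 had 1014, 1002 and 975 CPM at 12 h and 2320.1, 2089 and 2332 CPM at 0 h in WT cells, a log2 change of -1.17 against 1.01 in KO (log2 difference 2.19, SE 0.15, edgeR adjusted p = 9.14e-13). In MSMO1, HMGCS1 and HSPA5, every KO library was below every WT library at 0 h and above every WT library at 12 h. The difference between the changes thus includes a difference between the genotypes at rest. HERPUD1, which helps to clear misfolded proteins, had a log2 change of 0.56 in KO and -2.01 in WT (log2 difference 2.57, SE 0.14, edgeR adjusted p = 2.45e-15). That of XBP1 was 1.00 in KO and -0.50 in WT (log2 difference 1.5, SE 0.17, edgeR adjusted p = 1.54e-07). Among glycolysis and hypoxia genes, 9 of 29 had a higher change in KO and 0 a lower one. Under other settings the cholesterol count was 18 to 23, the unfolded protein count 9 to 13 and the glycolysis count 6 to 11, with 0 lower in each. No S phase gene of 29 was called for the difference by edgeR, 3 had an unadjusted edgeR p under 0.05, DESeq2 called 3, and their median log2 difference was -0.09. Other settings of edgeR called 0 or 1 of the 29 higher and 0 or 1 lower.

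**Figure D5:**
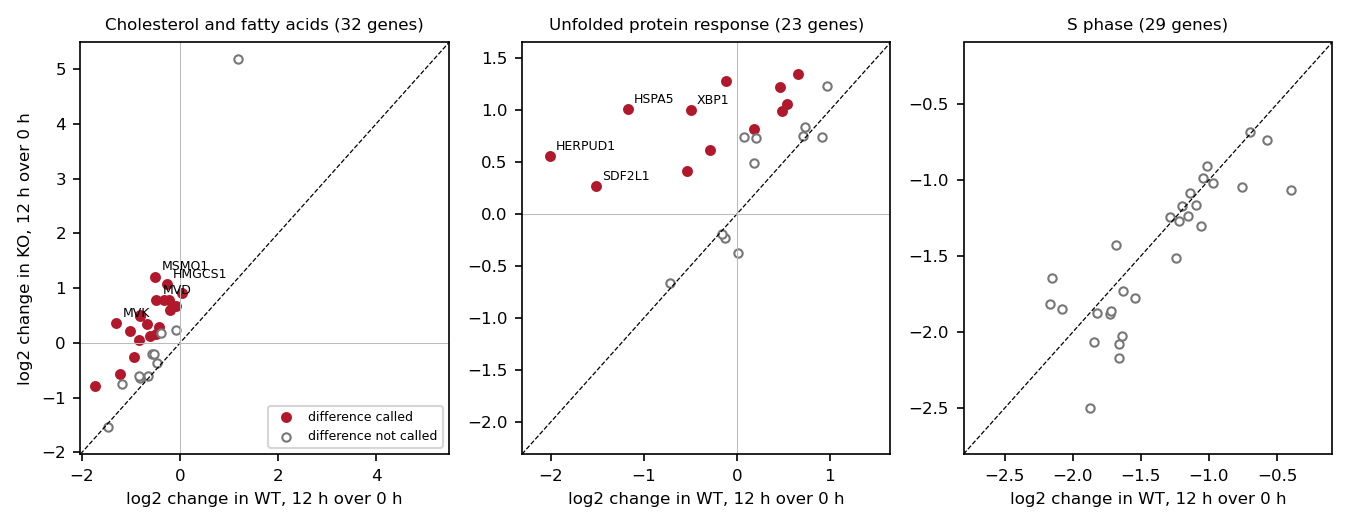
Log2 change from 0 h to 12 h in KO cells (y axis) against that in WT cells (x axis) for each tested gene of 3 lists. Filled points are genes whose difference between KO and WT was called, 21 of 32, 12 of 23 and 0 of 29, and the dashed line marks equal changes. The filled points lie above the line.

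Single genes with large differences came from several groups. SPRY4, the ERK pathway inhibitor, had 44.4, 42.3 and 51.6 CPM at 12 h and 2.99, 3.35 and 3.85 CPM at 0 h in WT cells, a change of 3.75 against 7.24 in KO (log2 difference 3.49, SE 0.37, edgeR adjusted p = 7.54e-08). It was 2.84 without KO 0 h replicate 1. MGLL, a lipase of monoglycerides, had 47.7, 37.9 and 43.1 CPM at 12 h and 1.87, 3.17 and 1.16 CPM at 0 h in KO cells. In WT cells it had 9.49, 13.1 and 9.48 CPM at 12 h and 5.52, 1.61 and 3.81 CPM at 0 h (log2 difference 3.19, SE 0.45, edgeR adjusted p = 6.84e-05). PLAU, urokinase, had 79.7, 38.7 and 35.2 CPM at 12 h and 1.11, 0.705 and 2.14 CPM at 0 h in KO cells. In WT cells it had 5.44, 3.89 and 4.27 CPM at 12 h and 1.79, 1.61 and 0.513 CPM at 0 h (log2 difference 3.20, SE 0.76, edgeR adjusted p = 0.028). EGR1 was at 566, 544 and 576 CPM at 12 h and 8.86, 10.7 and 8.14 CPM at 0 h in WT cells (log2 difference 2.77, SE 0.29, edgeR adjusted p = 1.36e-07). KO and WT libraries overlapped at 12 h and not at 0 h. SHISA2 had 36.9, 36.6 and 34.3 CPM at 12 h and 60.7, 78.6 and 68.2 CPM at 0 h in KO cells. In WT cells it had 150.1, 154 and 128 CPM at 12 h and 67.2, 75.5 and 66.00 CPM at 0 h (log2 difference -1.99, SE 0.33, edgeR adjusted p = 0.00111). The antisense transcript HHIP-AS1 had 18.5, 20.5 and 18.7 CPM at 12 h and 43.3, 50.6 and 45.8 CPM at 0 h in KO cells. In WT cells it had 59.7, 65.4 and 67.6 CPM at 12 h and 47.3, 41.2 and 46.5 CPM at 0 h (log2 difference -1.78, SE 0.21, edgeR adjusted p = 5.65e-07). Reads of an antisense transcript and its partner cannot be told apart where counting does not use strand, which the sources used here do not give. ENPP1, an ectoenzyme that cleaves nucleotides, rose in both genotypes and less in KO, with 47.2, 54.5 and 55.6 CPM at 12 h and 2.34, 1.41 and 1.58 CPM at 0 h in KO cells and 165, 180.2 and 164 CPM at 12 h and 2.45, 2.15 and 1.503 CPM at 0 h in WT cells (log2 difference -1.60, SE 0.28, edgeR adjusted p = 0.000441). OGN, a matrix proteoglycan, fell in KO, with 25.7, 9.58 and 11.3 CPM at 12 h and 58.7, 74.9 and 64.6 CPM at 0 h. It had 35.5, 40.6 and 31.5 CPM at 12 h and 50.4, 59.3 and 46.2 CPM at 0 h in WT cells (log2 difference -1.55, SE 0.37, edgeR adjusted p = 0.0264). The call for PLAU held in 6 and that for OGN in 4 of 12 fits that each left out 1 library, with the highest adjusted p for PLAU without WT 0 h replicate 1 (0.249, log2 difference 2.61) and for OGN without WT 0 h replicate 3 (0.0876). The log2 difference of PLAU was 3.81 without KO 0 h replicate 3. CXCR4 fell in both and further in KO, with 274, 255 and 242 CPM at 12 h and 479, 431 and 478 CPM at 0 h in WT cells (log2 difference -1.42, SE 0.18, edgeR adjusted p = 1.78e-06). Of 41 interferon-stimulated genes, 32 rose in KO and 31 in WT, and 5 had a higher change in KO, among them GBP5 (log2 difference 1.65, SE 0.38, edgeR adjusted p = 0.0161) and GBP1 (log2 difference 0.91, SE 0.20, edgeR adjusted p = 0.00927). The number was 2 without WT 0 h replicate 1, where GBP5 lost its call (adjusted p = 0.088), 3 without WT 0 h replicate 3, WT 12 h replicate 7 or 8 or KO 0 h replicate 2, and 9 without KO 12 h replicate 7.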

How the data were processed

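Gene counts were analysed as deposited. Per the labels' protocols, cells were lysed in TCL buffer, RNA was cleaned on beads and libraries were made with Illumina chemistry. The authors deposited expected counts per gene symbol, 1 table per library. Per the submitters' processing notes, cutadapt, STAR, DESeq2 and the builds GRCh37 and hg19 were used. The counting program and strand setting are not stated in these sources. Values that were not whole (0.177%) were rounded. In R 4.3.3, edgeR 4.0.16 was run on all 30 libraries in 1 fit of 10 groups, which share an estimate of the spread, after filterByExpr at a minimum count of 10, with TMM scaling and the robust quasi-likelihood F test. P-values were Benjamini-Hochberg adjusted over 21554 genes, and calls are at an adjusted p under 0.05. The standard error is the log2 fold change divided by the root of F. Floors of 3 counts over a group cover counting error only. On simulated counts over 20338 genes, 100% of 50 genes raised 4-fold, 96% of 50 lowered 4-fold, 76% raised 2-fold and 62% lowered 2-fold were recovered.

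Named genes were SLAMF6, IL2, IFNG, CD69, EGR1 and TBX21, and others by rank. The 10 largest rises and 10 largest falls were taken where a called gene reached 10 CPM without overlap between the groups. Each list gave up to 4 called members with the smallest p. The 5 largest called differences from WT in each direction were taken under stricter limits. The gene had to reach 10 CPM. Its libraries had to stay apart between 12 h and 0 h in each genotype, and between KO and WT at 12 h. Larger called differences, such as those of PTGER3, DAPK1 and LIF, did not meet these limits. The 8 genes with the widest range among KO 12 h libraries were also named. Other members named were chosen after their values were seen. The comparison, the 33 gene lists and the rule for naming genes were chosen with earlier results of these data known. Alternatives were DESeq2 1.42.0, its size factors, other filters, fewer libraries and each library left out. Leaving out KO 12 h replicate 7 and KO 0 h replicate 2 together was chosen after seeing the data. Promoters are RefSeq's (GRCh38.p14), used for 8255 tested genes with a single start. Values of some named genes are not reported here, and counts include them.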

Additional observations from a re-analysis of the deposited data

Results flagged for a closer look

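Of the genes named by rule, 48 had a change from 0 h to 12 h that differed between KO and WT cells in the test of the difference itself (edgeR adjusted p under 0.05, 3 libraries in each of 4 groups). Some of them were named because this same test called them, as the rule took the largest called differences in each direction. The number 48 is thus partly set by the choice of genes and is a description. Over all genes tested, 440 of 21554 (2.04%) were called for the difference. Values are the log2 change in KO minus that in WT, with no explanation offered. A value can reflect levels at 0 h as well as at 12 h.

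In lipid synthesis the difference was 1.72 for MSMO1, 1.34 for HMGCS1 and 1.01 for SC5D, and for the lipase MGLL it was 3.19. Among endoplasmic reticulum chaperones it was 1.40 for MANF, 0.75 for PDIA6, 0.70 for HSP90B1 and 0.53 for PDIA4, and for the stress factor DDIT3 it was 2.03. In glycolysis and hypoxia it was 1.19 for SLC2A3, 1.15 for NDRG1 and 0.68 for PKM.

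Among transcription factors and feedback inhibitors it was 2.77 for EGR1, 1.05 for KLF10, 3.49 for SPRY4 and 1.53 for SPRED2. In the TNF family and NF-kB it was 2.71 for TNFSF8, 1.71 for TNFSF10, 0.68 for TNFRSF10B and 1.58 for TRAF1. Surface receptors had 1.11 for CD69, 2.00 for ICAM1, 1.47 for LY9, 2.06 for SLAMF7, 1.09 for ITGB2 and 2.72 for HCAR1. Mean CD69 was lower in KO at both times, with 8.57 CPM against 24.4 CPM in WT at 0 h. At 12 h it was 709 CPM in KO and 934 CPM in WT, where libraries of KO and WT overlapped. The call for CD69 held in 2 of 12 fits that each left out 1 library, and that for HCAR1, which rests on 12 counts over the KO 0 h libraries, in 10, with 4.43 without KO 0 h replicate 1 and 2.12 without KO 0 h replicate 3. Interferon-stimulated and antigen presentation genes had 1.65 for GBP5, 0.91 for GBP1, 0.92 for HLA-E and 0.78 for NLRC5. Growth arrest genes had 1.84 for CDKN1A and 0.94 for BTG1, and PLAU had 3.20.

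Lower changes in KO were found in CXCR4, with -1.42, HSP90AA1, with -0.99, SHISA2, with -1.99, HHIP-AS1, with -1.78, ENPP1, with -1.60, and OGN, with -1.55. Others were DAPK1, with -2.37, PTGER3, with -2.72, EPHA3, with -1.61, COL1A1, with -3.24, and BLK, with -0.80. The fitted differences of SERPINB2, 6.67, LIF, 5.20, and PTGS1, 4.06, rest on 1, 0 and 1 counts over the KO 0 h libraries and depend on the prior count. Without KO 0 h replicates 1 and 3 in turn, PTGS1 had 5.98 and 3.36, and SERPINB2 had 8.59 and 5.97. LIF had 5.85 without WT 12 h replicate 9, COL1A1 had -3.95 without KO 12 h replicate 7, and SPRY4 had 2.84 without KO 0 h replicate 1. PLAU had 2.61 without WT 0 h replicate 1 and 3.81 without KO 0 h replicate 3. DAPK1 had -3.02 without KO 12 h replicate 8 and -1.65 without WT 12 h replicate 8. The call held in 2 of the 12 fits for DAPK1 and TNFSF10, 3 for BLK and BTG1, 4 for EPHA3, NDRG1 and OGN, 6 for PLAU and TNFRSF10B, 9 for LIF and SLAMF7, 10 for PDIA4, and 11 for PTGS1, SERPINB2, GBP5, PTGER3, ICAM1 and NLRC5.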

How the results depend on the processing

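The count of 5995 genes called between KO 12 h and KO 0 h was 4867 to 6285 under other scalings, filters, tools and library sets, with 48.6 to 52.0% of calls higher and no shared call in the opposite direction. Leaving out 1 library gave 4867 to 5350 calls. The difference between KO and WT, 440 calls, gave 298 to 545 when 1 library was left out and 439 to 569 under other filters, DESeq2's size factors or the 12 libraries alone. DESeq2's Wald test gave 710 calls, with no adjusted p for 5852 genes, and the cause was not tested. With the title numbers as a replicate block the 12 libraries gave 729 calls, against 510 without it. Deviations of same-numbered libraries correlated at -0.01 to 0.07, too low to take the numbers as pairs, although the libraries numbered 2 at 0 h were the shallowest of the 12 in both genotypes (5.64 M in KO and 7.59 M in WT). The main comparison allows no such fit because its groups share no number. DESeq2's size factors moved the share of higher calls among differences to 60.8% and its Wald test to 56.9%, against 68.9%.

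Of the 140 genes named by the rule and called in KO, 10 lost the call under some alternative (23 of 1680 values), and 0 reversed. The rule favoured genes with a small p or a large change, so this tally does not describe called genes at large. Other genes given above, such as MYC, DGKZ and HK2, also lost calls and are outside it. So did further called list members, such as CD27, IL3, NR4A2 and TOP2A. CCL4, TNFSF14, XCL1, XCL2, PDCD1 and PES1 lost it with the 6 libraries alone (adjusted p 0.165, 0.0960, 0.0640, 0.101, 0.100 and 0.0619), where the spread is estimated from those libraries only. CSF1R lost it in 8 settings, and BLK without KO 12 h replicate 7 or KO 0 h replicate 1 or 3. LAIR1 lost it without KO 12 h replicate 7 and NHP2 without KO 12 h replicate 8. Of 48 called differences, 20 lost the call under some alternative (111 of 864 values) and 0 reversed, most often CD69, BLK, DAPK1, TNFSF10, BTG1 and NDRG1. The shallow KO 0 h replicate 2, with 5.64 M counts, limits what can be said of genes near 1 CPM at rest.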
